A study of Rattus norvegicus with 8 samples.

Results

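The genes described here are 10 genes that mark brown adipocytes, followed across 8 polyA RNA-seq libraries of rat abdominal aorta. They were taken by name from the deposited expression table: Ucp1, Cidea, Dio2, Elovl3, Ppargc1a, Cpt1b, Fabp3, Slc27a2, Plin5 and Otop1. Of these, 9 were found among the 18090 genes of the table, and Elovl3 was not analysed here. All libraries came from wild-type rats. In 4 of them a filter paper with 10% iron chloride (FeCl3), used in animals to injure an artery until a clot forms, had been laid around the aorta for 5 min, and in the other 4 the paper had carried 0.9% saline for the same 5 min. The sources used here do not give the strain, sex or age of the animals, the time of harvest, or whether the fat around the vessel was trimmed. Values are FPKM, fragments scaled by gene length and by the library's total, so that genes of different length can be compared within a library. Between libraries the values also depend on the scaling, whose effect on the fold changes is given under the dependence on processing below.

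Brown adipocytes burn fatty acids to make heat. Noradrenaline acts through beta-adrenergic receptors and cAMP to release fatty acids from lipid droplets and to raise transcription of thermogenic genes, and UCP1 then lets protons flow back across the inner mitochondrial membrane without ATP synthesis. In rodents the fat around the thoracic aorta resembles brown fat, while that around the abdominal aorta is closer to white fat or mixed, so an aortic sample can hold both kinds of adipocyte in amounts that depend on what was dissected. In RNA from whole tissue, fewer cells of a type and less RNA per cell cannot be told apart.

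The promoters of 3 genes are shown because they hold a motif of the cAMP arm of this pathway. Each is the 250 bases before the RefSeq transcription start in the build GRCr8, written along the gene's strand, with TGACG, the core of a cAMP response element, and the full palindrome TGACGTCA in capitals. Coordinates are those of GRCr8 and not of mRatBN7.2, the build the submitters' processing notes name.
Ucp1, chr19:41721422-41721671, minus strand: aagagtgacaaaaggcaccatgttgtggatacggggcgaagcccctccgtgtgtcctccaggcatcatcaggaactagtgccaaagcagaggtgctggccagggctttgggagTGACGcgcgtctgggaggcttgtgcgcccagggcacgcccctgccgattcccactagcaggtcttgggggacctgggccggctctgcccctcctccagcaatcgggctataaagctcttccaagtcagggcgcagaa
Ppargc1a, chr14:63634058-63634307, plus strand: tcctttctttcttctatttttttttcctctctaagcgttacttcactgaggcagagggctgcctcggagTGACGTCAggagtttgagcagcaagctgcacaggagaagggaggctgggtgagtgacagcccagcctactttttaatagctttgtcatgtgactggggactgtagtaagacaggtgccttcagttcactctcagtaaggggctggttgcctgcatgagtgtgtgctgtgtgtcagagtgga
Fabp3, chr5:147935875-147936124, plus strand: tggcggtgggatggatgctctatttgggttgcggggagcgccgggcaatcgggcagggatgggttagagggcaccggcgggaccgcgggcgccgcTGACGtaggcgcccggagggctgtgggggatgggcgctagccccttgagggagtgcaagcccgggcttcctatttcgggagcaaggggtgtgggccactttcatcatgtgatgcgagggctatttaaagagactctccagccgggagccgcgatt
A promoter sequence was matched for 8 of the 9 genes. Searched on both strands, TGACG was present in 3 of the 8 (Ucp1, Ppargc1a and Fabp3) and in 18.2% of 33469 promoter windows of the same length. The full TGACGTCA, which contains TGACG on both strands, was present in Ppargc1a alone among the 8 and in 1.59% of all windows. AGGTCA, the core bound by many nuclear receptors, was present in Slc27a2 and Plin5 and in 14.1% of windows. Neither the direct repeat bound by PPAR with RXR (a pair of AGGTCA with 1 base between) nor TCAAGGTCA, the element of oestrogen-related receptors, which contains AGGTCA, was found in the 8, against 0.0508% and 0.388% of windows. These are matches of letters in a short window and say nothing about binding of a factor.

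Libraries held 24304434 to 30283292 fragments, as recovered from the steps of the FPKM values. Smooth muscle genes, the defining markers of the labelled tissue, were present in every library, with 6 of them summing to 3790 to 10930 FPKM after FeCl3 and 4991 to 26934 FPKM after saline. Libraries differed in blood and in fat. The alpha globin Hba-a1 measured 147404 to 396570 FPKM after FeCl3 and 11432 to 148687 FPKM after saline, and the part of this blood RNA in the fold changes below was not tested. Saline replicate 2 stood apart from all others in the genes described here, and the fold changes, the overlap of the groups, the relation of Ucp1 to Adipoq and the list medians below are given with and without it.

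Brown adipocyte genes were far more abundant in 1 saline library than in the other 7. Every one of the 9 genes had its highest value in saline replicate 2, between 3.49-fold (Cidea) and 82.0-fold (Ucp1) above the next library. This library was the highest of the 8 for 27.4% of the 11921 genes that passed a filter on low values (at least 1 FPKM in at least 4 libraries). It lay at least 2-fold above every other library for all 9 genes, against 4.35% of tested genes, and at least 5-fold above for 7 of the 9, against 0.512% of tested genes. Of the 5 genes that passed that filter, 5 were past the 2-fold mark and 4 past the 5-fold mark. FeCl3 replicate 2 came second for 7 of the 9 genes, saline replicate 3 for Fabp3 and FeCl3 replicate 3 for Slc27a2. How often FeCl3 replicate 2 came second among all tested genes was not counted.

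**Figure D1:**
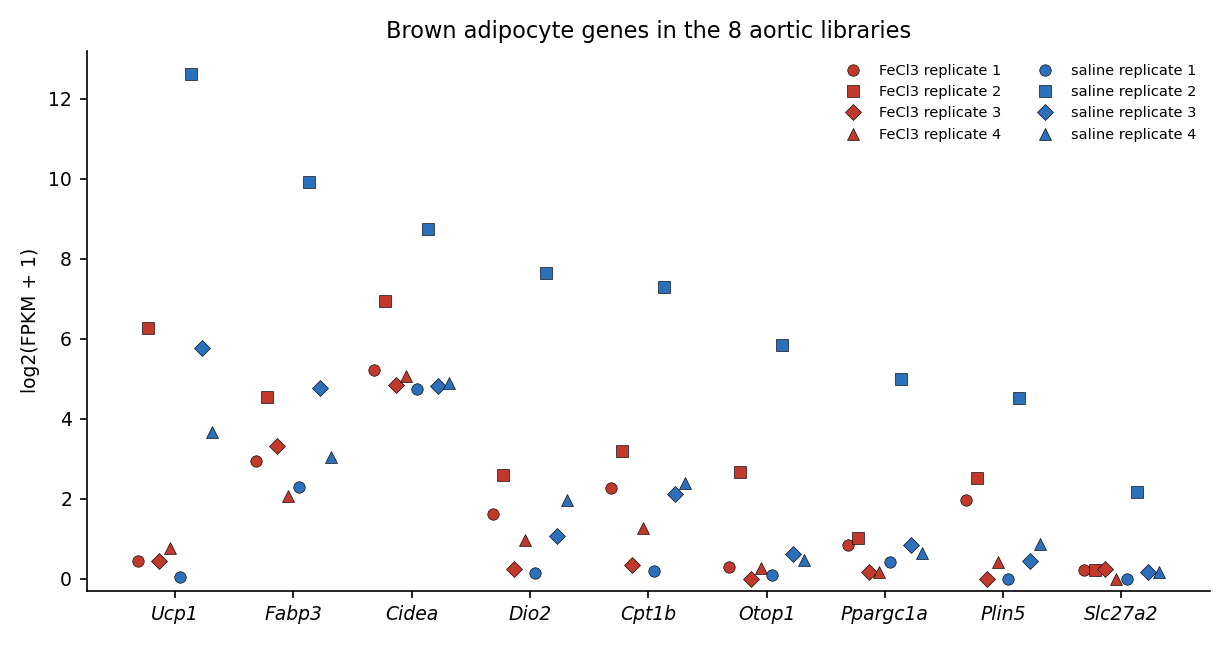
Level of the 9 brown adipocyte genes in each library, as log2(FPKM + 1), with genes ordered by their level in saline replicate 2. Each point is 1 library, red for FeCl3 and blue for saline; the blue square, saline replicate 2, is the highest point of every gene, and Cidea is the gene whose other points all stay above 4.

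Ucp1, the uncoupling protein that defines brown fat, spanned the widest range. It measured 0.350, 76.5, 0.356 and 0.692 FPKM in FeCl3 replicates 1 to 4, against 0.0275, 6272, 53.1 and 11.7 FPKM in saline replicates 1 to 4. Both conditions thus had libraries near the limit of detection and libraries with clear expression, and the groups overlapped. The highest value rested on 182778 fragments and made Ucp1 the gene of rank 3 by FPKM in that library. At the other end, saline replicate 1 held 1 fragment (95% exact Poisson interval 0.000697 to 0.153 FPKM) and FeCl3 replicates 1 and 3 held 11 fragments each. Such intervals cover counting error only. Averages were 19.5 ± 38.0 FPKM after FeCl3 and 1584 ± 3125 FPKM after saline (n = 4 each, ± SD), and the saline average without replicate 2 was 21.6 ± 27.9 FPKM.

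Otop1, which encodes a proton channel found in mouse brown fat, followed the order of Ucp1 closely. It measured 0.229, 5.40, 0 and 0.206 FPKM in the FeCl3 libraries and 0.0723, 56.1, 0.529 and 0.389 FPKM in the saline libraries. FeCl3 replicate 3 held no fragment, which allows up to 0.0637 FPKM if a count of 0 is taken to allow 3 fragments (the upper limit of the exact 95% Poisson interval is 0.0784 FPKM). The gene stood above 1 FPKM in FeCl3 replicate 2 and saline replicate 2 and in no other library.

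Dio2, the deiodinase that makes active thyroid hormone inside brown adipocytes, measured 2.09, 5.05, 0.179 and 0.945 FPKM after FeCl3 and 0.105, 198, 1.11 and 2.92 FPKM after saline. Ppargc1a, a coactivator that drives mitochondrial biogenesis and thermogenic transcription, measured 0.794, 1.02, 0.117 and 0.128 FPKM after FeCl3 and 0.337, 31.1, 0.800 and 0.562 FPKM after saline. For both regulators the remaining 3 saline libraries lay inside or just below the range of the FeCl3 libraries. A ribosomal protein pseudogene lies within the span of Ppargc1a in the GRCr8 annotation, so part of its low values is uncertain.

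The genes of fatty acid handling showed the same peak on different baselines. Cpt1b, the muscle and brown fat isoform of the enzyme that admits long-chain fatty acids to mitochondria, measured 3.78, 8.16, 0.273 and 1.42 FPKM after FeCl3 and 0.152, 156, 3.34 and 4.21 FPKM after saline. Fabp3, a fatty acid carrier of heart, muscle and brown fat, measured 6.67, 22.3, 8.92 and 3.20 FPKM after FeCl3 and 3.88, 975, 26.1 and 7.27 FPKM after saline. Fabp3 was therefore detected in every library, also in saline replicate 1, which had 1 fragment of Ucp1. Its span overlaps that of Zcchc17 in the GRCr8 annotation, and the sources used here do not say whether counting used strand, so its baseline is uncertain.

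Slc27a2, an acyl-CoA synthetase and fatty acid transporter best known from liver and kidney, was the weakest gene. It measured 0.167, 0.160, 0.183 and 0 FPKM after FeCl3 and 0, 3.50, 0.124 and 0.120 FPKM after saline. Plin5, which coats lipid droplets at their contacts with mitochondria, measured 2.89, 4.74, 0 and 0.330 FPKM after FeCl3 and 0, 22.0, 0.360 and 0.835 FPKM after saline. FeCl3 replicates 1 and 2 thus held more Plin5 than each saline library other than replicate 2. By the same limit of 3 fragments, the 0 values allow up to 0.0600 FPKM of Plin5 in FeCl3 replicate 3 and 0.0511 FPKM in saline replicate 1.

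Cidea, a lipid droplet protein that distinguishes brown from white fat in rodents, behaved differently from the rest. It measured 36.1, 121, 27.6 and 32.5 FPKM after FeCl3 and 25.9, 424, 27.1 and 28.9 FPKM after saline. Outside saline replicate 2 and FeCl3 replicate 2 its level stayed between 25.9 and 36.1 FPKM, and saline replicate 1 held 1188 fragments of Cidea beside its single fragment of Ucp1. In saline replicate 1 Cidea made up 85.0% of the summed FPKM of the 9 genes, and in saline replicate 2 it made up 5.21%, where Ucp1 made up 77.1%.

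In saline replicate 2 the genes ordered as Ucp1 (6272 FPKM), Fabp3 (975), Cidea (424), Dio2 (198), Cpt1b (156), Otop1 (56.1), Ppargc1a (31.1), Plin5 (22.0) and Slc27a2 (3.50 FPKM). The first 5 were among the 505 most abundant genes of that library. Their summed FPKM in that library was 8139, against 30.5 to 113 in the other saline libraries; the FeCl3 libraries had 37.6 to 245.

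FeCl3 and saline were compared over all genes with limma on log2(FPKM + 1), with Benjamini-Hochberg adjustment over the 11921 genes tested. Of the 9 brown adipocyte genes 5 passed the filter on low values, and 0 of these 5 changed at an adjusted p under 0.05, where 0% of all tested genes were called. At an unadjusted p under 0.05 there were also 0 of 5, against 16.6% of all genes (4.42% higher and 12.2% lower). Without saline replicate 2 there were again 0 of 5 at that level, against 17.4% of all genes. Rescaled to TPM, limma called 65 genes higher and 3223 lower at an adjusted p under 0.05, 0 of the 5 among them, and the median of all genes was -0.90. Each of the 5 had a negative fold change, as did 70.2% of all tested genes. Their median was -1.35, beside a median of -0.25 over all tested genes, on the log2(FPKM + 1) scale, which understates differences of low genes. The FeCl3 and saline values overlapped for each of the 9 genes, while 9.81% of all tested genes had groups that did not overlap. Without saline replicate 2 the values still overlapped for each of the 9, where 16.2% of all tested genes did not overlap.

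The fitted fold changes had wide errors. Ucp1 had a log2 fold change of -3.54 ± 2.50 (SE) with a limma adjusted p of 0.474. Fabp3 had -1.79 ± 1.498 (adjusted p = 0.546), Dio2 -1.35 ± 1.47 (adjusted p = 0.646), Cpt1b -1.23 ± 1.36 (adjusted p = 0.654) and Cidea -0.29 ± 0.92 (adjusted p = 0.888), all from limma. The median SE of all tested genes was 0.32, so these genes varied more than most between libraries of the same condition. Differences of mean log2(FPKM + 1) for the 4 genes under the filter, with no test, were -1.18 for Ppargc1a, -0.94 for Otop1, -0.46 for Slc27a2 and -0.24 for Plin5.

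Saline replicate 2 set the sign of most of these values. Without it, limma gave Ucp1 -1.18 ± 1.75 (adjusted p = 0.722), Fabp3 -0.15 ± 0.71 (adjusted p = 0.919), Dio2 0.29 ± 0.62 (adjusted p = 0.810), Cpt1b 0.20 ± 0.76 (adjusted p = 0.898) and Cidea 0.69 ± 0.49 (adjusted p = 0.458). Slc27a2, Plin5 and Otop1 also turned positive without that library, at differences of 0.06, 0.78 and 0.42, while Ppargc1a stood at -0.09. The median fold change of all tested genes was -0.17 without that library.

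**Figure D2:**
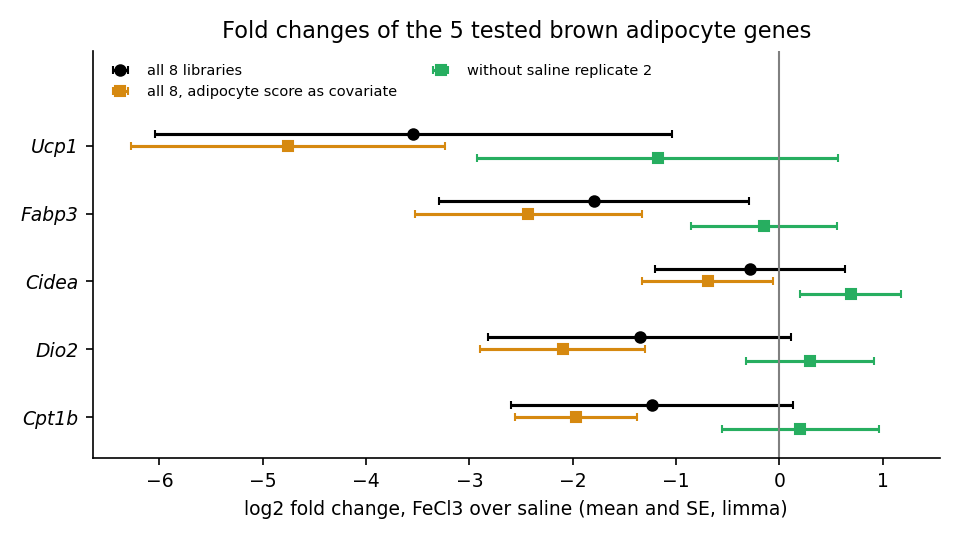
Fold changes of the 5 tested brown adipocyte genes, FeCl3 over saline, from limma with all 8 libraries (black), with the adipocyte score of each library as a covariate (orange) and without saline replicate 2 (green). Bars are SE; the black points lie between -3.54 and -0.29, and without saline replicate 2 they lie between -1.18 and 0.69.

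Fat content of the libraries was read from 18 genes that brown and white adipocytes share. Their mean log2(FPKM + 1) was 7.59, 8.02, 3.50 and 5.44 in FeCl3 replicates 1 to 4, and 1.12, 8.91, 4.39 and 6.29 in saline replicates 1 to 4. Adipocyte transcripts were therefore abundant in FeCl3 replicates 1 and 2 and in saline replicate 2, and close to absent in saline replicate 1. Adipoq, the hormone adiponectin made by all adipocytes, measured 1664, 1146, 74.4 and 452 FPKM after FeCl3 and 0.200, 702, 27.5 and 376 FPKM after saline (limma log2 fold change 3.20 ± 1.93 SE, adjusted p = 0.412, and 4.43 ± 1.85 SE, adjusted p = 0.277, without saline replicate 2). Lep, the hormone leptin, which is made mainly by white adipocytes, measured 11.4, 7.34, 1.01 and 5.86 FPKM after FeCl3 and 0, 5.75, 1.01 and 8.61 FPKM after saline. Neither gene had its highest value in saline replicate 2.

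The library with the most Ucp1 was not the one with the most Adipoq. By the mean of the 18 shared genes, saline replicate 2 (8.91) and FeCl3 replicate 2 (8.02) had the most fat. They also had the most Ucp1, while FeCl3 replicate 1 came next in fat (7.59) with little Ucp1. Adipoq was among the shared genes least like Ucp1: their r with Ucp1 ran from 0.30 (Cd36) to 0.95 (Fasn). FeCl3 replicate 1 had the most Adipoq of any library and 0.350 FPKM of Ucp1, 17942-fold less than saline replicate 2. Saline replicate 3 had 27.5 FPKM of Adipoq and 53.1 FPKM of Ucp1. Across the 8 libraries log2(Ucp1 + 1) and log2(Adipoq + 1) had a Pearson r of 0.33 (exact permutation p = 0.418) and a Spearman rho of 0.31 (exact permutation p = 0.462), the only relation across libraries that was tested. With the 2 libraries farthest from the median Adipoq left out, saline replicates 1 and 3, r was 0.29 over 6 libraries (exact permutation p = 0.539). Over the 7 libraries without saline replicate 2, r was 0.24.

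**Figure D3:**
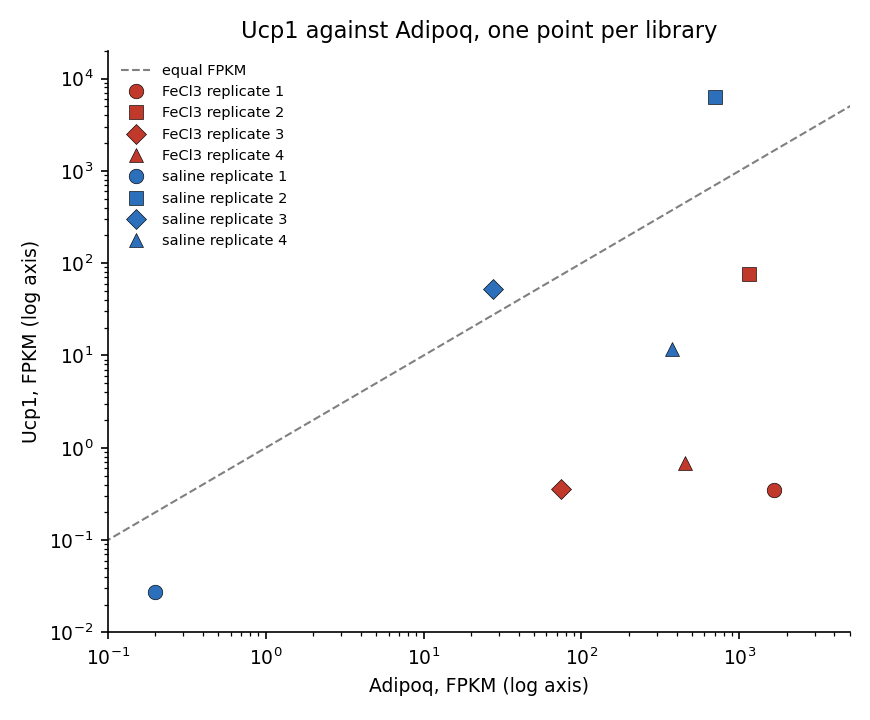
Ucp1 against Adipoq in FPKM, both on log axes, 1 point per library (red FeCl3, blue saline), with a dashed line at equal FPKM. Saline replicates 2 and 3 lie above the line and the other 6 libraries below it, with FeCl3 replicate 1 at the most Adipoq (1664 FPKM) and only 0.350 FPKM of Ucp1.

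The ratio of Ucp1 to Adipoq FPKM within a library does not depend on how that library was scaled. It was 0.000210, 0.0668, 0.00479 and 0.00153 in FeCl3 replicates 1 to 4, against 0.138, 8.93, 1.93 and 0.0312 in saline replicates 1 to 4. The ratio of saline replicate 1 came from 1 fragment of Ucp1 and 0.200 FPKM of Adipoq and carries little information. As log2((Ucp1 + 1)/(Adipoq + 1)) the balance averaged -7.00 ± 2.77 after FeCl3 and -0.26 ± 3.39 after saline (n = 4 each, ± SD). Unlike the plain ratio, this balance does depend on scaling where values are low, because 1 is added to each. In saline replicate 1 both genes were under 1 FPKM, so its balance of -0.22 was set largely by the added 1. The difference was -6.75 (two-sided exact permutation p = 0.0571), where 4 against 4 can reach 0.0286, so it did not pass. FeCl3 replicate 2, at -3.89, lay inside the saline range, and saline replicate 4, at -4.89, lay inside the FeCl3 range. Without saline replicate 4 the difference was -8.29 (exact permutation p = 0.0286, the smallest that design allows), and without saline replicate 2 it was -5.61 (exact permutation p = 0.0857). Without saline replicate 1 the difference was -6.74 (exact permutation p = 0.0857). With Plin1, a lipid droplet protein of all adipocytes, in place of Adipoq the difference was -4.12 (exact permutation p = 0.114).

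With the adipocyte score as a covariate in limma, the brown genes had log2 fold changes of -4.76 (Ucp1, adjusted p = 0.172), -2.43 (Fabp3, 0.226), -2.10 (Dio2, 0.188), -1.97 (Cpt1b, 0.170) and -0.70 (Cidea, 0.492), and none passed. At an unadjusted p under 0.05 this fit had 3 of the 5 genes, Cpt1b, Ucp1 and Dio2, against 23% of all tested genes. Without saline replicate 2 the same fit, added after the data were seen, gave -2.98 for Ucp1 (adjusted p = 0.398), -0.61 for Fabp3 (0.666), -0.59 for Dio2 (0.403), -0.91 for Cpt1b (0.387) and 0.30 for Cidea (0.745). Cpt1b alone of the 5 then had an unadjusted p under 0.05, against 12.5% of all tested genes. Of the 18 genes of that score 14 were themselves highest in saline replicate 2, against 27.4% of all tested genes. The level of fat differed between libraries of both conditions, and its part in the comparison of FeCl3 with saline was not tested beyond this fit.

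Other genes of the thermogenic pathway were taken from lists that hold none of the 10 genes. Among enzymes and carriers enriched in brown fat, 0 of 14 tested genes passed limma, and the median was -0.92 (-0.08 without saline replicate 2). Of the 14, 11 had a negative fold change, where 70.2% of all tested genes did. In this list 12 of the 15 genes in the table lay at least 2-fold higher in saline replicate 2 than in any other library, against 4.35% of all tested genes. Cox8b, the cytochrome oxidase subunit of muscle and brown fat, measured 0.597, 66.5, 0 and 0.709 FPKM after FeCl3 and 0, 834, 13.8 and 7.43 FPKM after saline. This matched the order of Ucp1 except at the lowest values.

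Most transcription factors of brown fat shared the peak, but not all. Of the 10 in the table, some of them under the filter, 7 were highest in saline replicate 2 and 5 by at least 2-fold. For all tested genes these shares were 27.4% and 4.35%. Of 7 tested, 0 passed and 6 were negative, against 70.2% of all tested genes, with a median of -0.84 (-0.38 without saline replicate 2). Esrra, an oestrogen-related receptor that controls mitochondrial genes, measured 15.7, 19.9, 8.37 and 9.65 FPKM after FeCl3 and 10.2, 93.2, 13.0 and 12.0 FPKM after saline. Ppara, the nuclear receptor of fatty acid oxidation, reached 20.1 FPKM in saline replicate 2 and at most 1.83 FPKM elsewhere. Prdm16, which directs brown adipocyte fate, did not follow: it measured 1.81, 3.12, 5.29 and 4.89 FPKM after FeCl3 and 8.21, 5.24, 10.3 and 7.54 FPKM after saline, with its highest values in saline replicates 3 and 1, the libraries with the least Adipoq. Irf4, a partner of PGC-1alpha in brown fat, was highest in FeCl3 replicates 1 and 2, at 34.6 and 26.5 FPKM, against 15.5 FPKM in saline replicate 2. Ppara, Prdm16 and Irf4 were picked after their values were seen.

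In the beta-adrenergic arm 0 of 10 genes passed and 6 were negative, against 70.2% of all tested genes (median -0.21, and 0.23 without saline replicate 2). Gnas, the stimulatory G protein subunit, measured 118, 80.9, 60.9 and 64.0 FPKM after FeCl3 and 48.9, 440, 181 and 97.2 FPKM after saline. The receptors differed in their peak library. Adrb3, the receptor of all rodent adipocytes, was highest in FeCl3 replicate 1 at 29.3 FPKM and measured 8.07 FPKM in saline replicate 2. Adrb1 was highest in saline replicate 2 at 10.9 FPKM and at most 1.36 FPKM after FeCl3. Both receptors were picked after their values were seen.

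Enzymes of mitochondrial fatty acid oxidation had their highest value in saline replicate 2 for 12 of 12 genes, at least 2-fold above every other library for 10. For all tested genes these shares were 27.4% and 4.35%. None of these enzymes passed in limma and 11 were negative, against 70.2% of all tested genes (median -0.62, and 0.31 without saline replicate 2). Acadl, a dehydrogenase of long-chain fatty acids, measured 96.2, 189, 32.7 and 48.1 FPKM after FeCl3 and 154, 795, 74.6 and 70.5 FPKM after saline. Of 18 shared adipocyte genes 14 were highest in saline replicate 2 and 6 by at least 2-fold, and of 6 genes that lean to white fat 0 were. Neither list had a gene past the threshold, with medians of 0.84 and 0.37 (2.31 and 0.56 without saline replicate 2). Of the 2 beige adipocyte genes tested 0 passed, and Shox2, the more abundant of them, was highest in saline replicate 3 at 23.2 FPKM and measured 0.526 FPKM in saline replicate 2. Shox2 does not stand for the list: of its 6 genes 2 were highest in saline replicate 2, 1 of them by at least 2-fold.

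**Figure D4:**
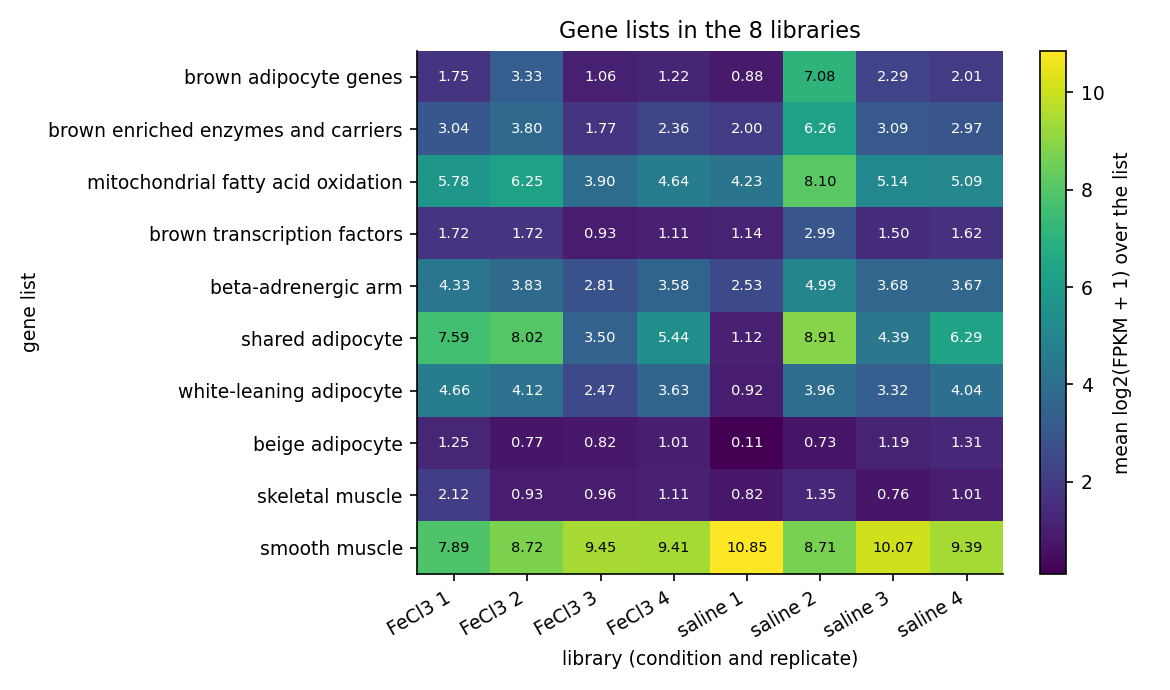
Mean log2(FPKM + 1) of 10 gene lists (rows) in the 8 libraries (columns, FeCl3 then saline). The brown adipocyte genes reach 7.08 in saline replicate 2 and 0.88 to 3.33 elsewhere, while the shared adipocyte genes are also high in FeCl3 replicates 1 and 2, at 7.59 and 8.02.

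Several of the 9 genes are also expressed outside brown fat, so markers of other tissues were read in the same libraries. The 12 skeletal muscle genes summed to at most 68.4 FPKM after FeCl3 and 70.4 FPKM after saline, the higher of these in saline replicate 2, and the adult fast myosins Myh1, Myh2 and Myh4 were at most 0.27 FPKM in any library. Of the 6 heart muscle genes Myh6, Myh7, Nppa, Tnni3 and Actc1 were at most 0.73 FPKM in any library. The list summed to 0.813 to 1.12 FPKM after FeCl3 and 0.121 to 115 FPKM after saline, the highest value being Tnnt2 in saline replicate 2. Liver genes summed to at most 13.1 FPKM after FeCl3 and 15.1 FPKM after saline, with Alb at 4.27 FPKM or less. These maxima fell in FeCl3 replicate 2 and saline replicate 2, the libraries with the most Ucp1. Most of each was Apoc3, at 9.03 and 9.54 FPKM, against at most 0.486 FPKM in any other library. The 3 kidney genes in the table summed to at most 0.542 FPKM after FeCl3 and 0.0692 FPKM after saline. The 6 adrenal cortex genes summed to at most 16.9 FPKM after FeCl3 and 4.76 FPKM after saline. Most of the 16.9 FPKM, in FeCl3 replicate 1, was Mc2r at 12.0 FPKM. Cyp11a1, Cyp11b1, Cyp21a1 and Cyp17a1 were at most 1.29 FPKM in any library. The part of these tissues in the values above was not tested.

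The pattern of Ucp1 was set beside that of every other tested gene by the Pearson correlation of log2(FPKM + 1) over the 8 libraries. The nearest gene was Cox8b (r = 0.99), followed by Gatc, Abhd11, Pcyt2, Pkm, LOC100362738, Elovl6, Coa3, Afg3l1 and Mrpl19 (r of 0.97 to 0.98). These values describe likeness over 8 libraries that share the peak in saline replicate 2. Elovl6, a fatty acid elongase, measured 5.69, 36.8, 2.27 and 2.07 FPKM after FeCl3 and 1.56, 157, 17.3 and 9.95 FPKM after saline. The peak of the other genes was not always large: Coa3, an assembly factor of cytochrome oxidase, was 1.29-fold higher in saline replicate 2 than in the next library. Among the brown adipocyte genes themselves likeness to Ucp1 ran from 0.95 for Fabp3, 0.93 for Cpt1b and 0.93 for Otop1 down to 0.82 for Plin5. Over the 7 libraries without saline replicate 2 it ran from 0.87 for Fabp3, 0.77 for Cpt1b and 0.76 for Otop1 down to 0.56 for Cidea, 0.46 for Plin5 and 0.36 for Slc27a2.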

How the data were processed

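RNA of 8 abdominal aorta samples was sequenced as polyA libraries, 4 per condition and all in batch 1 per the labels. The values deposited by the authors are FPKM, with 1 column for each library. HTSeq, HISAT2 and fastp, and the build mRatBN7.2, are listed in the submitters' processing notes; versions, annotation and strand setting are not given in the sources used here. Columns were matched to samples by title, and 0 value columns were left unmapped. Library totals and gene lengths were recovered from the steps of 1 fragment in the FPKM values (whole within 0.02 for 100% of genes); fragments are the smallest whole numbers that fit, and they sum to at least 98.0% of each total. Recovery and fit were tested on simulated data.

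Genes with at least 1 FPKM in at least 4 libraries entered limma 3.58.1 (R 4.3.3) on the log2(FPKM + 1) scale (two-sided, with a mean trend; Benjamini-Hochberg over all tested genes, threshold 0.05). The balance of Ucp1 to Adipoq was tested by exact permutation. Replicates were numbered in accession order and are described as biologically independent. The genes and lists were chosen with earlier results of these data known. The text names the 10 genes, Adipoq, Lep and the 10 genes most like Ucp1. For the lists of the thermogenic pathway, fatty acid oxidation and beige adipocytes it also names the most abundant tested gene. Other genes named, such as markers of other tissues, were chosen with their values known. Alternatives covered the pseudocount, filters, TPM, median-of-ratios and quantile scaling, an adipocyte covariate, limma voom on fragments, each library left out, and, added after the data were seen, the covariate without saline replicate 2. Figures used matplotlib 3.10.9 in Python 3.11.15.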

Additional observations from a re-analysis of the deposited data

Results flagged for a closer look

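Within groups of 4, a value was set aside when its gap to the next value exceeded Dixon's 95% critical share of the group's range. This was done over 20 groups of FPKM or log2 ratios. Chance gives about 1 in 20 for normally distributed values, and FPKM that are not logged can be skewed, so more flags can arise by chance. The rule flagged 13 values, 9 of them in saline replicate 2, which all come from 1 library and are not independent. In FeCl3 replicate 2 these were Ucp1 (76.5 FPKM), Cidea (121 FPKM) and Otop1 (5.40 FPKM). In FeCl3 replicate 4 it was Slc27a2, at 0 FPKM, the lowest of its group. In saline replicate 2 they were Ucp1 (6272 FPKM), Cidea (424), Dio2 (198), Ppargc1a (31.1), Cpt1b (156), Fabp3 (975), Slc27a2 (3.50), Plin5 (22.0) and Otop1 (56.1 FPKM). The Ucp1 to Adipoq ratio had no such value in either group.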

How the results depend on the processing

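Over 17 alternative fits and scalings, not all of which were run for the 4 genes under the filter, 121 of 130 alternative values of the 9 genes kept their negative sign. Of these 130 values 86 had a test, and 0 of the 86 passed the threshold. The sign turned without saline replicate 2 for Cidea (0.69), Dio2 (0.29), Cpt1b (0.20), Slc27a2 (0.06), Plin5 (0.78) and Otop1 (0.42), and for Plin5 without FeCl3 replicate 3 (0.17) or 4 (0.03). With the adipocyte covariate and without saline replicate 2 together, added after the data were seen, Cidea was 0.30. limma called 0 genes in either direction except with FPKM rescaled to TPM (65 higher, 3223 lower; median of all genes -0.90) and without saline replicate 4 (150 higher, 10 lower); with a library left out the counts ran from 0 to 150 higher and from 0 to 10 lower. At an unadjusted p under 0.05 limma had 527 higher and 1454 lower, while scaling by median of ratios gave 1065 higher and 503 lower, and voom 516 higher and 1559 lower. The median of all genes was -0.05 with median-of-ratios scaling and -0.08 with quantile normalization, and the adjusted p of Ucp1 ran from 0.172 to 0.807. Under TPM, median-of-ratios and quantile scaling, in that order, the log2 fold change of Ucp1 was -4.10, -3.30 and -4.13. Fabp3 had -2.50, -1.56 and -1.68, and Dio2 had -1.78, -1.18 and -1.38. Cpt1b had -1.73, -1.03 and -1.22, and Cidea had -1.01, -0.06 and -0.07. The Ucp1 to Adipoq difference ran from -8.29 to -5.61 with a library left out, and passed without saline replicate 4 alone (-8.29, exact permutation p = 0.0286). It was -4.12 with Plin1 as the denominator (exact permutation p = 0.114), -4.50 with the mean of the shared adipocyte genes (exact permutation p = 0.0571) and -7.54 with a pseudocount of 0.1 (exact permutation p = 0.0571). With a library left out, the values ran from -0.76 to 0.69 for Cidea, -2.21 to 0.29 for Dio2, -2.16 to 0.20 for Cpt1b, -0.66 to 0.060 for Slc27a2, -0.72 to 0.78 for Plin5, -1.62 to -0.09 for Ppargc1a and -1.57 to 0.42 for Otop1. The cause of these changes was not tested. No paired analysis was possible because replicate numbers were given in accession order and pair no samples. Counting error limits genes at a few fragments, such as Slc27a2.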

Other observations

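Saline replicate 2 held other transcripts at levels that no other library approached; they were picked after their values were seen and are given with no test. Genes under the filter on low values were not ranked, and of these Tnnt2 stood 212-fold above the next library. Among the 11921 tested genes Ucp1 had the largest fold over the next library, at 82.0-fold. Dio2 and Fabp3 ranked 3 and 4, and Cpt1b ranked 8. Rank 2 was Krt8, an epithelial keratin, at 118 FPKM against 2.00 to 2.98 FPKM elsewhere, and its partner Krt18 reached 99.2 FPKM against at most 2.84. Cdh1, the epithelial cadherin, stood at 31.3 FPKM against at most 5.47. Enzymes of glycerol phosphate metabolism were also among them. Gk, glycerol kinase, measured 134 FPKM against at most 4.63, and Gpd2, the mitochondrial glycerol phosphate dehydrogenase, 79.0 FPKM against at most 4.47. Gmpr, guanosine monophosphate reductase, measured 705 FPKM against at most 19.8.

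Tnnt2, the cardiac form of troponin T, measured 115 FPKM in saline replicate 2 and at most 0.542 FPKM in any other library, 212-fold less, while the other heart muscle genes measured stayed at or below 0.73 FPKM in all libraries. Tnnc2, fast skeletal troponin C, measured 48.4 FPKM there and at most 6.81 FPKM elsewhere, while Acta1 stood at 10.7 FPKM in that library and at 27.8 FPKM in saline replicate 1.

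Zfp516, a zinc finger factor that acts on the Ucp1 promoter in mice, had groups that did not overlap, at 0.588 to 1.86 FPKM after FeCl3 and 2.89 to 3.67 FPKM after saline, as did 9.81% of all tested genes (limma log2 fold change -0.84 ± 0.24 SE, adjusted p = 0.245, and -0.80 ± 0.28 SE, adjusted p = 0.261, without saline replicate 2). It was picked after its values were seen.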
